A study of Mus musculus with 21 samples.

Results

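The genes described here are the 30 genes of cholesterol synthesis and its control by SREBP2, chosen by name from a count table of 53801 genes in small intestinal IgA+ plasma cells (IgA+ PCs). They comprise 8 genes of the mevalonate arm, 11 genes of the sterol arm, 9 genes of sterol sensing and SREBP2 processing, and 2 genes of sterol transport. All 30 genes passed the filter on low counts and were among the 20256 genes tested.

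Cholesterol is built from acetyl-CoA. The mevalonate arm makes isoprenoid units and joins them to farnesyl diphosphate, and the sterol arm condenses these to squalene, closes the sterol rings and trims them to cholesterol. The transcription factor SREBP2, encoded by *Srebf2*, is held in the endoplasmic reticulum by SCAP and the INSIG proteins while sterol is plentiful. When sterol falls it travels to the Golgi, is cut by the proteases encoded by *Mbtps1* and *Mbtps2*, and switches on most genes of both arms. Plasma cells carry an extensive endoplasmic reticulum, the membrane in which these sensors sit.

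The study sorted CD138+ IgA+ PCs from the small intestinal lamina propria of mice on a C57BL/6 background and sequenced poly-A RNA in bulk, to ask which time of day differences depend on the plasma cell clock. Knockout mice carried *Mb1* Cre and *Arntl* fl/fl alleles, so that the clock gene *Arntl* (Bmal1) is deleted by a Cre driven from the B lineage gene *Cd79a* (*Mb1*). Deletion starts early in B cell development and is not limited to plasma cells. Control mice were Cre-negative littermates that carried the same floxed *Arntl* alleles. Cells were taken at zeitgeber time 0 (ZT0, lights on) from 6 control and 4 knockout mice and at ZT12 (lights off) from 6 control and 5 knockout mice.

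The libraries held 14471018 to 22785835 counts, of which immunoglobulin genes took 51.5 to 63.6%. *Arntl*, the targeted gene, lay at 6.83 to 8.36 CPM (counts scaled to library size with TMM factors) in control mice at ZT0, 4 to 5.56 in control mice at ZT12, 4.08 to 6.47 in knockout mice at ZT0 and 3.11 to 4.93 in knockout mice at ZT12. A count over the whole gene also takes reads from outside the floxed part, so it checks the deletion only weakly. *Cd79a*, the gene that carries the Cre, lay at 163 to 276 CPM in knockout mice and at 386 to 586 CPM in control mice, with no overlap. All 10 plasma cell markers had counts in every library, with medians of 89.4 to 290000 CPM. So did 7 of 8 myeloid, 4 of 8 other B cell, 3 of 8 T cell and 6 of 12 epithelial markers. The highest medians of these lists were 15.1, 17.3, 14.4 and 60.3 CPM. *Xist*, an RNA of female cells, lay at 0.492 to 479 CPM, and every group held libraries over and under 50 CPM. *Nsdhl*, *Ebp* and *Mbtps2* lie on the X chromosome. A set of 4 libraries stood apart with an immunoglobulin share over 58%: control ZT12 replicates 2, 4 and 5 and knockout ZT0 replicate 3. In 3 of these (control ZT12 replicates 2 and 4, knockout ZT0 replicate 3) longer genes also had lower values than in the other libraries.

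The promoters of 4 of these genes, chosen after their values were seen, are shown because SREBP2 acts at such regions together with the factor NF-Y. Each is the stretch of 250 bases before the RefSeq start of the gene on GRCm38.p6. They are *Hmgcs1* (chr13:119690101-119690350, plus strand), *Nsdhl* (chrX:72918271-72918520, plus strand), *Cyp51* (chr5:4104698-4104947, minus strand) and, as a gene with little difference between times, *Mvd* (chr8:122443423-122443672, minus strand). The gene starts that came with the counts differ for *Hmgcs1* (119690379), *Nsdhl* (72918557) and *Cyp51* (4104746, inside the stretch shown). Capitals mark a CCAAT box, the letters bound by NF-Y, on either strand, and in *Hmgcs1* also the sterol regulatory element TCACNCCAC.
Hmgcs1: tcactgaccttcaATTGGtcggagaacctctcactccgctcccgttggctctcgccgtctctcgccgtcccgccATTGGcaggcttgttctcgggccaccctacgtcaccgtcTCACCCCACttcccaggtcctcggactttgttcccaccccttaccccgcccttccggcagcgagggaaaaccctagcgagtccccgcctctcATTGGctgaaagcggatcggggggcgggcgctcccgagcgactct
Nsdhl: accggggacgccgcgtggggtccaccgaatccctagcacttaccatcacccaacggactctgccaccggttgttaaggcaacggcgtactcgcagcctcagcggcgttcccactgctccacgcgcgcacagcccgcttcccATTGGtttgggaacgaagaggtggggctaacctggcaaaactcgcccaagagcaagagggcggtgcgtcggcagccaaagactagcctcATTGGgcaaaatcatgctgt
Cyp51: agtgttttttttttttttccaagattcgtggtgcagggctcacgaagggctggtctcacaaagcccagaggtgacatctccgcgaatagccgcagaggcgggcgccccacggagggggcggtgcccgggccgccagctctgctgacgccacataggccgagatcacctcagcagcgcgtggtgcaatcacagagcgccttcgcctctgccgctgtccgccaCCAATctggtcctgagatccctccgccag
Mvd: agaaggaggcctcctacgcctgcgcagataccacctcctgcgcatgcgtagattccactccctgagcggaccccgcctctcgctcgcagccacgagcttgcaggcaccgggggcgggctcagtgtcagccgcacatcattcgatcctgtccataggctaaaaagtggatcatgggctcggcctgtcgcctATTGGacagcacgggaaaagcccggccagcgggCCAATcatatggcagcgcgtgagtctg

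Promoter windows that also run 50 bases past the start were found for 24 of the 30 genes, with none for *Fdps*, *Fdft1*, *Sqle*, *Erlin2*, *Rnf139* and *Stard4*. CCAAT on either strand was in a window of 20 of the 24 genes, against 41.1% of the 27025 genes in the table. The E-box CACGTG, the letters bound by the clock factors CLOCK and Bmal1, was in 6 of the 24, against 8.09% of all genes. These 6 were *Hsd17b7*, *Sc5d*, *Dhcr7*, *Scap*, *Insig1* and *Erlin1*. A gene counted if any of its windows matched, and *Dhcr7*, *Scap* and *Erlin1* have 3, 2 and 3 windows. Of the 24, 9 were called lower at ZT12 in control mice (below). The E-box was in 2 of these 9 and 4 of the other 15, and CCAAT in 9 and 11. TCACNCCAC was in 1 of the 24 (*Hmgcs1*), against 1.44% of all genes. None of the 3 motifs contains another. A match is a description of these letters and not a binding site.

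Per kilobase of gene length, *Insig1* had the highest level of the 30 genes, at a median of 144 CPM per kilobase over the 21 mice (range 101 to 209). *Insig1* encodes an anchor that keeps SREBP2 in the endoplasmic reticulum and is itself a target of SREBP2. *Srebf2* came next at 41.2 CPM per kilobase (28.1 to 55.1), and the ranges of these 2 genes did not overlap. *Hmgcs1*, which makes HMG-CoA, lay at 20.8 (8.68 to 47.8) and *Cyp51*, the lanosterol demethylase, at 17.6 (12.6 to 29.7), with overlapping ranges. Down the order, neighbouring genes overlapped in range. The lowest levels were those of *Erlin1*, a sensor that helps degrade HMG-CoA reductase (0.923 CPM per kilobase), *Tm7sf2*, a sterol reductase (0.754), and *Mbtps2* (0.705). *Insig2*, the second anchor, lay at 4.41 CPM per kilobase.

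**Figure D1:**
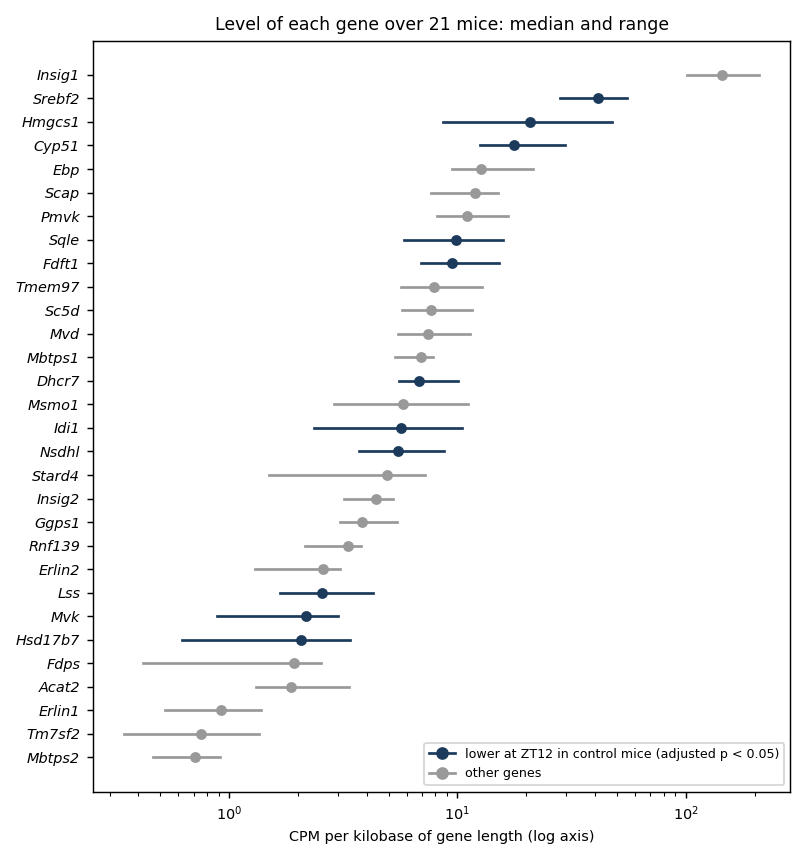
Level of each of the 30 genes in CPM per kilobase of gene length on a log axis, with a point at the median and a bar from the lowest to the highest of 21 mice; dark genes were lower at ZT12 in control mice at an adjusted p under 0.05. *Insig1*, at a median of 144, stands above all others, and dark genes occur from *Srebf2* at 41.2 down to *Hsd17b7* at 2.07.

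In control mice, 11 of the 30 genes were lower at ZT12 than at ZT0 and none was higher (edgeR quasi-likelihood test, Benjamini-Hochberg adjusted p under 0.05 over 20256 genes). Of all genes tested, 0.78% were called lower and 0.948% higher. The 11 were 3 of 8 mevalonate arm genes (*Hmgcs1*, *Mvk*, *Idi1*), 7 of 11 sterol arm genes (*Fdft1*, *Sqle*, *Lss*, *Cyp51*, *Nsdhl*, *Hsd17b7*, *Dhcr7*), 1 of 9 sensing genes (*Srebf2*) and 0 of 2 transport genes. The change was below 0 in 28 of the 30 genes, with a median log2 fold change of -0.41 against 0.0063 over all genes. The count depended on how the immunoglobulin share was treated. With immunoglobulin genes removed before the fit, the same 11 genes were called, among 349 of 19953 genes. With each library's immunoglobulin share as a covariate, 0 of the 30 genes and 0 of all genes were called. At an unadjusted p under 0.05, 14 of the 30 were lower, against 1648 of 20256 genes in either direction. Without the 4 libraries of high immunoglobulin share, a choice made after seeing the data, 3 of the 30 genes were called (*Hsd17b7*, *Srebf2*, *Nsdhl*). In that fit 12 of 19631 genes were called. Over all settings run the count of the 30 went from 0 to 15. It was 5 without control ZT0 replicate 1, 2 or 5 or control ZT12 replicate 4. In these fits 42, 31, 100 and 37 of all genes were called, against 350 with all libraries. The count was 6 or 7 without control ZT0 replicate 3 or 4 or control ZT12 replicate 5. There 89, 143 and 181 of all genes were called. The median change of the 11 genes was -0.75 with all libraries, -0.57 with the covariate and -0.58 without the 4 libraries. The immunoglobulin share was 51.5 to 53.3% in control mice at ZT0 and 53.3 to 63.6% at ZT12, and its part in the result was not tested beyond these fits. Epithelial markers, of which 6 of 12 had counts in every library, summed to 53.1 to 191 CPM at ZT0 and 71.4 to 805 CPM at ZT12 in control mice. With their level as a covariate 6 of the 30 genes and 93 of all genes were called. Within the libraries over 50 CPM of *Xist*, and within those under it, 0 of the 30 genes and 0 of all genes were called. In each class 15 of the 30 were lower at an unadjusted p under 0.05. The counts over all 20256 genes, in either direction, were 2985 over and 1360 under 50 CPM. In bulk RNA, fewer cells of a kind and less RNA per cell cannot be told apart.

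In the mevalonate arm, *Hmgcs1* ranged from 106 to 219 CPM in control mice at ZT0 (median 124) and from 39.9 to 97 CPM at ZT12 (median 64.6). The groups did not overlap, and the log2 fold change was -1.06 ± 0.25 (SE; adjusted p = 0.0414, edgeR). *Mvk*, the mevalonate kinase, ranged from 6.05 to 8.06 CPM at ZT0 (median 6.36) and from 2.37 to 4.96 CPM at ZT12 (median 3.57). Its groups did not overlap either, with a log2 fold change of -0.94 ± 0.18 (SE; adjusted p = 0.0127, edgeR). *Idi1*, which isomerises the isoprenoid unit, ranged from 22.3 to 36.6 CPM at ZT0 (median 26.9) and from 8.27 to 19.9 CPM at ZT12 (median 17.5), and fell by 0.77 ± 0.17 on the log2 scale (SE; adjusted p = 0.0265, edgeR). The other 5 genes of the arm did not pass the test. *Acat2*, at the entry to the arm, and *Pmvk*, the kinase after *Mvk*, had log2 fold changes of -0.13 each. *Mvd*, the decarboxylase between *Pmvk* and *Idi1*, had -0.0018 ± 0.14 (SE), with a 95% interval from -0.29 to 0.285. *Fdps*, the farnesyl diphosphate synthase, had -0.43 ± 0.26 (SE), and its ZT12 values went from 1.76 CPM in replicate 2 to 9.31 CPM in replicate 6. *Ggps1*, which leads away from sterols to geranylgeranyl diphosphate, had 0.16 ± 0.11 (SE).

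In the sterol arm, *Sqle*, the squalene epoxidase, ranged from 63.8 to 87.9 CPM in control mice at ZT0 (median 71.9) and from 32.5 to 53.9 CPM at ZT12 (median 46.4). No value overlapped, and the log2 fold change was -0.75 ± 0.13 (SE; adjusted p = 0.00606, edgeR). *Cyp51* ranged from 84.4 to 131 CPM at ZT0 (median 97.8) and from 55.6 to 71.1 CPM at ZT12 (median 64.6), with a log2 fold change of -0.67 ± 0.11 (SE; adjusted p = 0.00551, edgeR). *Nsdhl*, a dehydrogenase of sterol demethylation, ranged from 17.2 to 24.2 CPM at ZT0 (median 22) and from 10.6 to 15.6 CPM at ZT12 (median 11.4). Its log2 fold change of -0.79 ± 0.12 had the smallest p of the 30 genes (adjusted p = 0.00475, edgeR). *Hsd17b7*, the ketoreductase of the same demethylation complex, ranged from 13.4 to 17.2 CPM at ZT0 (median 16) and from 3.16 to 12.3 CPM at ZT12 (median 7.64), and fell by 0.98 ± 0.21 on the log2 scale (SE; adjusted p = 0.0249, edgeR). These 4 genes did not overlap between the times.

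*Fdft1*, the squalene synthase, ranged from 40 to 64.5 CPM in control mice at ZT0 (median 52.9) and from 29.4 to 41.5 CPM at ZT12 (median 37.3). The groups overlapped only through ZT0 replicate 6, and the log2 fold change was -0.52 ± 0.12 (SE; adjusted p = 0.0256, edgeR). *Lss*, which closes the rings to lanosterol, ranged from 28.9 to 46.1 CPM at ZT0 (median 31.1) and from 18 to 31.3 CPM at ZT12 (median 24.3), with a log2 fold change of -0.52 ± 0.13 (SE; adjusted p = 0.0431, edgeR). *Dhcr7*, a late reductase, ranged from 37.9 to 58.4 CPM at ZT0 (median 46.1) and from 32.1 to 39.6 CPM at ZT12 (median 36.1), with a log2 fold change of -0.36 ± 0.095 (SE; adjusted p = 0.0495, edgeR). Its call sat at the threshold. With each library's trend on gene length removed, *Lss* and *Dhcr7* were not called (adjusted p = 0.101 and 0.105, edgeR) and *Insig1* was (adjusted p = 0.033). Of the other sterol arm genes, *Tm7sf2* had a log2 fold change of -0.76, *Msmo1*, the methyl sterol oxidase, -0.69, and *Sc5d*, the desaturase, -0.33, with adjusted p of 0.058, 0.0642 and 0.152 (edgeR).

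*Ebp*, the sterol isomerase between these steps, had a value of the opposite sign. It ranged from 21.9 to 27.6 CPM in control mice at ZT0 (median 26.6) and from 27.1 to 49.3 CPM at ZT12 (median 31.3). The log2 fold change was 0.40 ± 0.12 (SE; adjusted p = 0.0782, edgeR). The highest value was that of ZT12 replicate 2, the library with the highest immunoglobulin share, and without it the log2 fold change was 0.27.

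**Figure D2:**
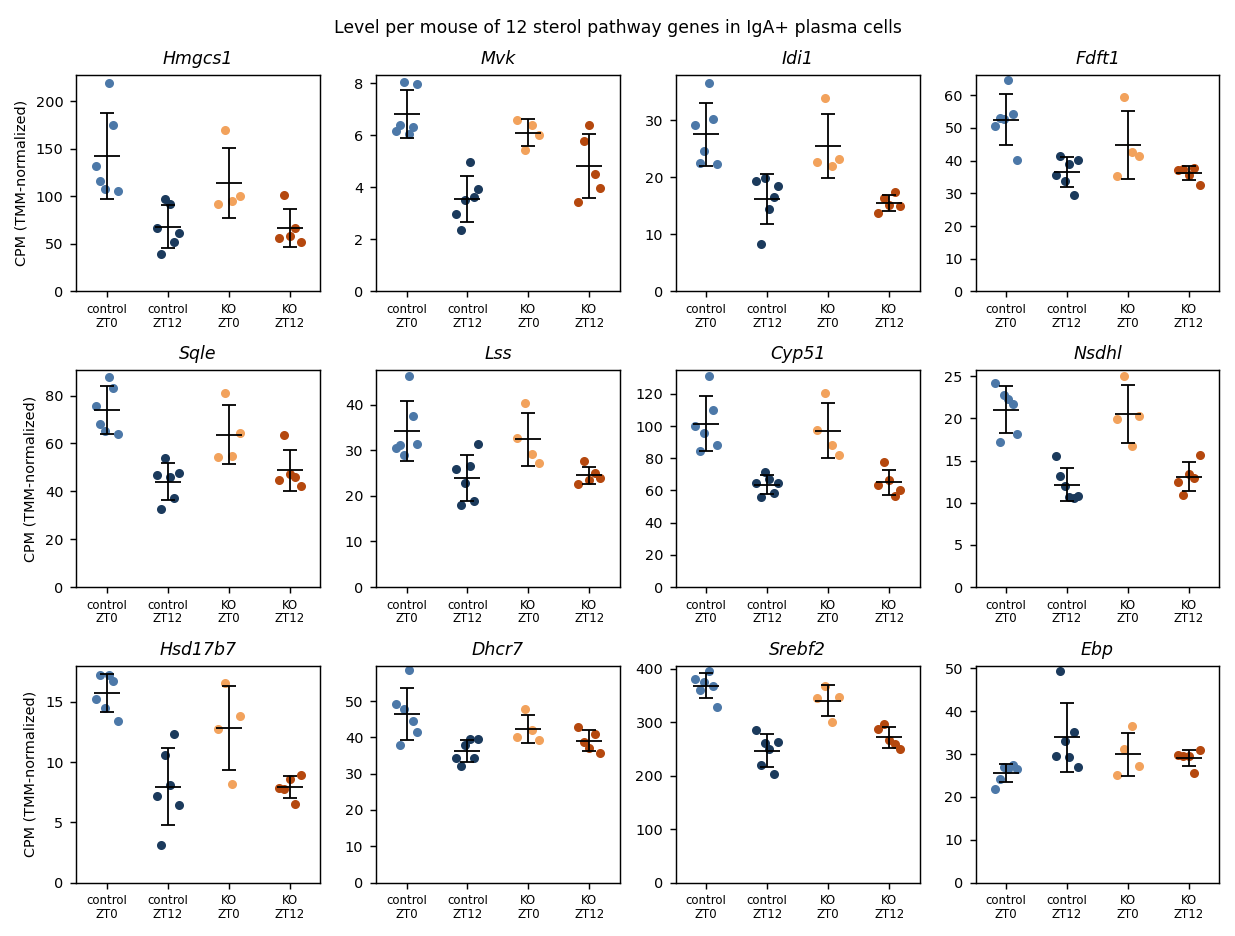
TMM-scaled CPM of the 11 genes called lower at ZT12 in control mice and of *Ebp*, 1 point per mouse, with a line at the group mean and bars of 1 SD; KO marks the *Arntl* knockout. In control mice *Sqle* lies at 63.8 to 87.9 at ZT0 and 32.5 to 53.9 at ZT12, and *Ebp* shows the opposite order with 1 mouse at 49.3.

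Among the sensing genes, *Srebf2* ranged from 329 to 396 CPM in control mice at ZT0 (median 372) and from 202 to 286 CPM at ZT12 (median 255). All ZT12 mice lay below all ZT0 mice, and the log2 fold change was -0.58 ± 0.09 (SE; adjusted p = 0.00475, edgeR). *Insig1* ranged from 441 to 645 CPM at ZT0 (median 538) and from 312 to 468 CPM at ZT12 (median 421). Its log2 fold change of -0.42 ± 0.12 missed the threshold (adjusted p = 0.0597, edgeR), and the groups overlapped. *Insig2* ranged from 14.4 to 17.2 CPM at ZT0 (median 15.4) and from 12.6 to 16.4 CPM at ZT12 (median 15.3), with a log2 fold change of -0.06 ± 0.11 (SE) and a 95% interval from -0.28 to 0.16. *Erlin2*, the partner of *Erlin1*, ranged from 14.6 to 16.8 CPM at ZT0 (median 16.1) and from 7.54 to 14.4 CPM at ZT12 (median 13), with no overlap. Its log2 fold change of -0.39 ± 0.13 did not pass the test (adjusted p = 0.108, edgeR). *Scap*, *Mbtps1*, *Mbtps2*, *Erlin1* and *Rnf139*, a ubiquitin ligase that binds the INSIG and SCAP proteins, had log2 fold changes from -0.33 to -0.13 with adjusted p of 0.30 to 0.526 (edgeR). With the immunoglobulin share as a covariate the values of *Scap* (0.098), *Mbtps1* (0.025), *Erlin1* (0.0078), *Rnf139* (0.15) and *Insig2* (0.050) were above 0. In the transport group, *Stard4*, which carries sterol between membranes, had a log2 fold change of -0.57 ± 0.22 (SE; adjusted p = 0.188, edgeR) and *Tmem97*, a sterol-regulated membrane protein, had -0.23 ± 0.16 (SE).

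The ZT12 mice lay wholly below the ZT0 mice in 11 of the 30 genes in control mice, against 0.859% of all genes, and wholly above in none. They were *Hmgcs1*, *Mvk*, *Idi1*, *Sqle*, *Cyp51*, *Nsdhl*, *Srebf2* and *Hsd17b7*, which were called, and *Tm7sf2*, *Erlin2* and *Stard4*, which were not. A subset of 7 genes had been displayed earlier for these libraries (*Hmgcs1*, *Mvk*, *Idi1*, *Nsdhl*, *Cyp51*, *Srebf2*, *Sqle*). All 7 displayed genes were called lower, with a median log2 fold change of -0.77. Of the 23 genes not displayed, 4 were called lower (*Hsd17b7*, *Fdft1*, *Lss*, *Dhcr7*), with a median over the 23 of -0.33. The displayed genes came from an analysis of these same mice, so their count is not independent evidence of the direction. The paper also reported oscillating mevalonate and cholesterol genes in separate RNA-seq of wild-type mice over the day, which was not used here.

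In knockout mice, 0 of the 30 genes were called between ZT12 and ZT0 (edgeR), as were 0 of all genes. At an unadjusted p under 0.05, 12 of the 30 were lower at ZT12 and none was higher, against 4.09% of all genes lower. The change was below 0 in 21 of the 30, with a median log2 fold change of -0.26 against 0.0055 over all genes. Both values rested in part on knockout ZT0 replicate 2, without which the median was -0.14. At an unadjusted p under 0.05, 7 of the 30 were then lower and 1 higher, against 1806 of 20154 genes in either direction. All 11 sterol arm genes were below 0. Of the 9 sensing genes 7 were above 0, as were 10262 of 20256 genes. These 7 lay at 0.0083 to 0.27, with an unadjusted p of 0.0742 to 0.947 (edgeR). Over the 30 genes the smallest adjusted p was 0.23 (edgeR), for *Nsdhl* and *Cyp51*. DESeq2 called these 2 genes (adjusted p = 0.017 each) among 47 of all genes. The ZT12 mice lay wholly below the ZT0 mice in 5 of the 30 genes, against 1.41% of all genes. These were *Nsdhl*, *Cyp51*, *Idi1*, *Srebf2* and *Sc5d*.

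*Nsdhl* lay at 19.9, 25, 16.7 and 20.3 CPM in the 4 knockout mice at ZT0 and at 12.5, 10.9, 13.4, 12.9 and 15.7 CPM in the 5 at ZT12. The groups did not overlap, and the log2 fold change was -0.64 ± 0.14 (SE). *Cyp51* lay at 97.3, 121, 88.3 and 82.1 CPM at ZT0 and at 63.6, 77.7, 66.5, 56.8 and 60.2 CPM at ZT12, with no overlap and a log2 fold change of -0.58 ± 0.13 (SE). *Idi1* lay at 22.8, 33.8, 21.9 and 23.2 CPM at ZT0 and at 13.8, 16.4, 15.1, 17.4 and 14.9 CPM at ZT12, again with no overlap, and its log2 fold change of -0.71 ± 0.19 was close to the control value. *Srebf2* lay at 346, 368, 301 and 347 CPM at ZT0 and at 287, 296, 266, 260 and 249 CPM at ZT12. Every ZT12 mouse was below every ZT0 mouse, with a log2 fold change of -0.33 ± 0.11 (SE; adjusted p = 0.515, edgeR).

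*Hmgcs1* lay at 91.9, 170, 95.5 and 101 CPM in knockout mice at ZT0 and at 55.9, 101, 58.8, 66.6 and 51.9 CPM at ZT12. The high values were replicate 2 at each time, and the log2 fold change was -0.77 ± 0.29 (SE). *Sqle* lay at 54.4, 81.2, 54.9 and 64.5 CPM at ZT0 and at 44.8, 63.4, 47.1, 45.8 and 42.4 CPM at ZT12, so that the groups overlapped through replicate 2 at ZT12. *Hsd17b7* lay at 12.8, 16.6, 8.2 and 13.9 CPM at ZT0 and at 7.89, 7.79, 8.61, 6.5 and 8.91 CPM at ZT12. Its low ZT0 value was replicate 3, a library of high immunoglobulin share, and without the 4 libraries of high share it was called in knockout mice (log2 fold change -0.86, adjusted p = 0.0356, edgeR). *Mvk* lay at 6.59, 5.42, 6.4 and 6.01 CPM at ZT0 and at 3.45, 5.78, 6.39, 4.51 and 3.98 CPM at ZT12, with a log2 fold change of -0.34 ± 0.20 (SE). The groups overlapped, which they did not in control mice.

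*Fdft1* lay at 35.3, 59.5, 42.5 and 41.4 CPM in knockout mice at ZT0 and at 37.1, 37.5, 35.6, 37.8 and 32.6 CPM at ZT12. *Lss* lay at 32.8, 40.3, 29.1 and 27.2 CPM at ZT0 and at 22.7, 27.6, 23.4, 24.9 and 23.9 CPM at ZT12. *Dhcr7* lay at 40.1, 47.9, 41.9 and 39.4 CPM at ZT0 and at 42.9, 38.6, 37.1, 41 and 35.6 CPM at ZT12. The groups of all 3 genes overlapped. *Insig1* lay at 476, 606, 440 and 461 CPM at ZT0 and at 413, 503, 443, 392 and 355 CPM at ZT12, with a log2 fold change of -0.23 ± 0.13 (SE). *Insig2* lay at 13.6, 18.1, 11.1 and 16.6 CPM at ZT0 and at 15.5, 12.6, 15.8, 15.3 and 15.3 CPM at ZT12, with a log2 fold change of 0.0083 ± 0.12 (SE). Neither anchor passed the test.

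**Figure D3:**
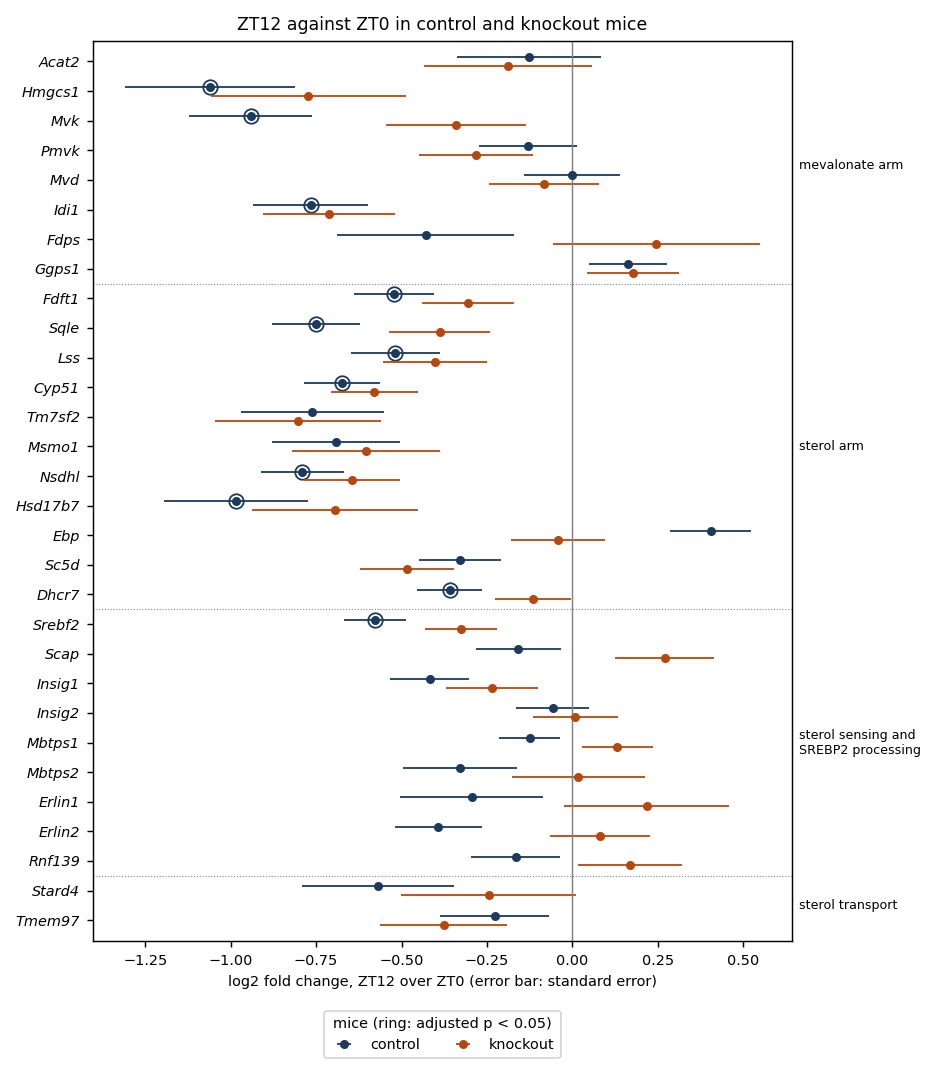
Log2 fold change of each of the 30 genes at ZT12 over ZT0, in control mice (blue) and knockout mice (orange), with bars of 1 SE and rings at an adjusted p under 0.05. The 11 ringed values, from -1.06 for *Hmgcs1* to -0.36 for *Dhcr7*, are all in control mice, and the sterol arm lies below 0 in both genotypes apart from *Ebp* in control mice.

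Whether the time of day difference itself differed between genotypes was tested in the same fit, and 0 of the 30 genes were called (edgeR, and also DESeq2), and edgeR called 0 and DESeq2 4 of all genes. At an unadjusted p under 0.05, 3 of the 30 had a higher and 1 a lower knockout change, against 5.18% and 5.63% of all genes. The knockout change was the higher for *Mvk* (difference 0.60 ± 0.27, 95% interval 0.04 to 1.16), *Scap* (0.43 ± 0.19) and *Erlin2* (0.47 ± 0.19), and the lower for *Ebp* (-0.45 ± 0.18; all SE), with adjusted p of 0.442 to 0.451 (edgeR). *Ebp* lay at 25, 31.2, 36.5 and 27.2 CPM in knockout mice at ZT0 and at 29.8, 29.5, 29.6, 25.7 and 30.9 CPM at ZT12. *Erlin2* lay at 17.9, 15, 12.1 and 14.7 CPM at ZT0 and at 17.5, 16.2, 15, 14.2 and 16.1 CPM at ZT12. At ZT0 replicate 3, the library of high immunoglobulin share, had the highest value of *Ebp* and the lowest of *Erlin2*. The count of 4 genes at an unadjusted p under 0.05 was 1 without knockout ZT0 replicate 3, 2 without control ZT12 replicate 2, 0 with the immunoglobulin share as a covariate and 8 with scaling to library size only. The matching counts over all genes tested in each fit were 1055, 1684, 696 and 1954. Over all genes, 10356 of 20256 differences were above 0, with a median of 0.0136. The difference was above 0 in 23 of the 30 genes, with a median of 0.20. Without control ZT0 replicate 4, control ZT12 replicate 2 or knockout ZT0 replicate 3 that median was 0.12, 0.13 and 0.13. Without the 3 libraries in which longer genes had lower values, a choice made after seeing the data, the median was 0.038, and with the immunoglobulin share as a covariate it was 0.019. The calls made in control mice and not in knockout mice are therefore not shown to differ between genotypes.

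**Figure D4:**
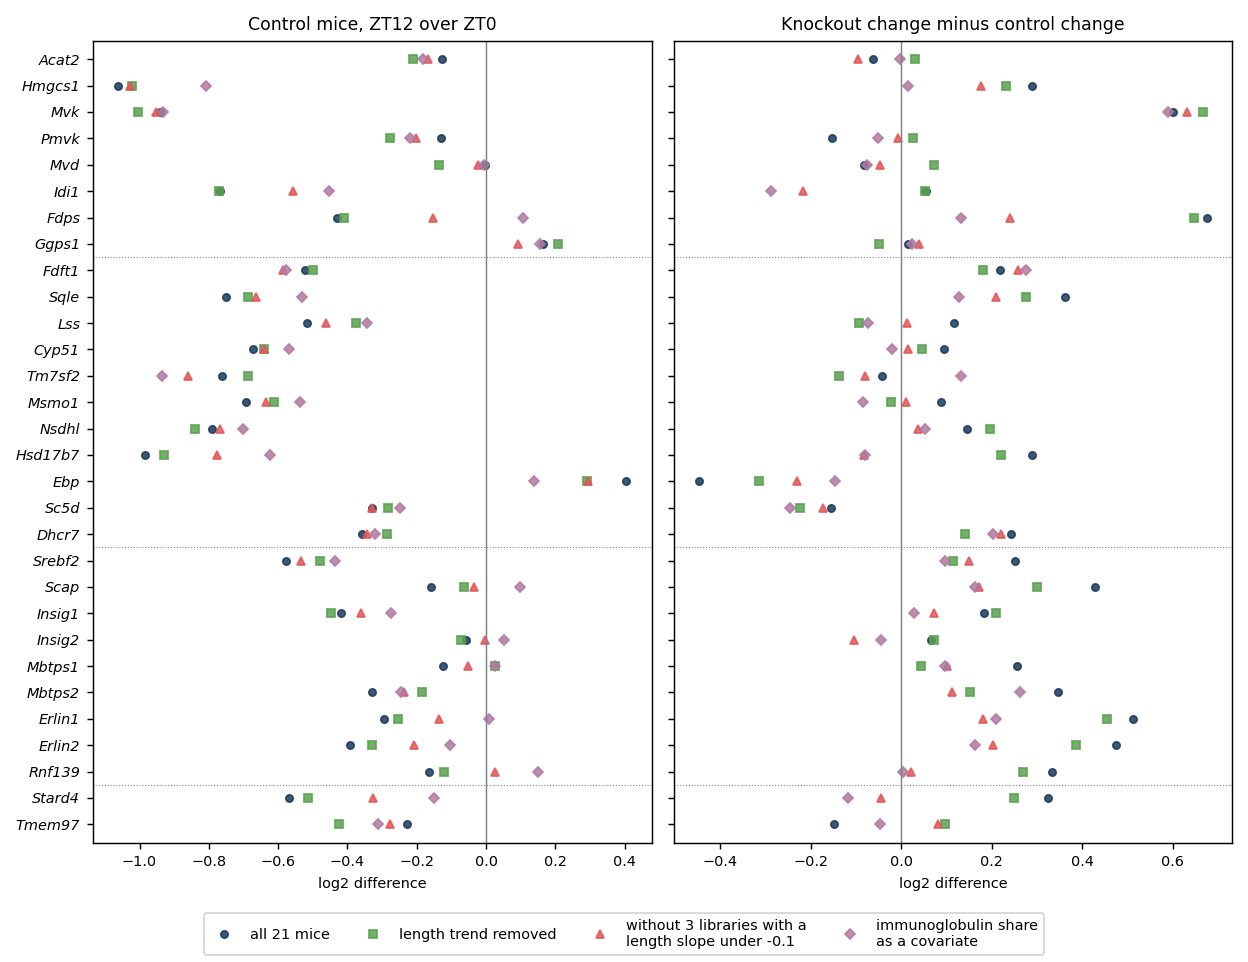
Log2 change of each of the 30 genes at ZT12 over ZT0 in control mice (left) and the knockout change minus the control change (right), under 4 ways of processing the same counts. On the left the 11 called genes stay below 0 in all 4, and on the right the median over the 30 genes goes from 0.20 with all mice to 0.019 with the immunoglobulin share as a covariate.

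Averaged over both genotypes, 13 of the 30 genes were lower at ZT12 and none was higher (edgeR, adjusted p under 0.05), against 0.464% of all genes lower. These were 10 of the 11 genes called in control mice, without *Dhcr7* (adjusted p = 0.12), together with *Tm7sf2* (log2 fold change -0.78, adjusted p = 0.0165), *Msmo1* (-0.65, adjusted p = 0.0299) and *Sc5d* (-0.41, adjusted p = 0.0264). The sterol arm thus had 9 of 11 genes called, and *Ebp* (0.18) and *Dhcr7* (-0.24) were the others. With the immunoglobulin share as a covariate 9 of the 30 were called, and without the 4 libraries of high share also 9. In these fits 183 of 20256 and 189 of 19631 genes were called, against 163 of 20256 with all libraries and no covariate.

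Between genotypes at the same time, 0 of the 30 genes were called at ZT0 and 0 at ZT12 (edgeR, and also DESeq2). Calls were as rare among all genes, with 0.00987% lower and 0% higher at ZT0 and 0.00987% lower and 0.00494% higher at ZT12, so that a count of 0 says little about the 30 genes. None of the 30 had groups that did not overlap, against 0.474% of all genes lower and 0.504% higher at ZT0 and 0.138% lower and 0.242% higher at ZT12. At an unadjusted p under 0.05 there was none at ZT0, against 2.24% of all genes lower and 2.66% higher. At ZT12 there were 2, *Mvk* (log2 difference of knockout over control 0.44 ± 0.19) and *Erlin2* (0.39 ± 0.13; both SE), against 4.25% of all genes higher. Leaving out control ZT12 replicate 6 made this count 4, and leaving out either control ZT12 replicate 2 or knockout ZT12 replicate 3 made it 1. The log2 differences of the 30 genes ranged from -0.41 to 0.22 at ZT0 and from -0.24 to 0.44 at ZT12.

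Within groups, some mice were high or low for many of the 30 genes. Knockout ZT0 replicate 2 had the highest value of its group in 21 of the 30 genes and control ZT0 replicate 4 in 17, while control ZT12 replicate 2 had the lowest value in 17 and knockout ZT0 replicate 3 in 15. The last 2 are libraries of high immunoglobulin share. Across the 21 mice, with group means removed, the 435 pairs of the 30 genes had a median Pearson r of 0.23, and 124 pairs were below 0. *Hmgcs1* correlated with *Msmo1* (Pearson r = 0.943) and with *Sqle* (r = 0.932), and *Sqle* with *Insig1* (r = 0.886). The lowest values were those of *Ebp*, with r = -0.659 against *Mbtps1*, -0.639 against *Erlin2* and -0.624 against *Fdps*. With some other genes *Ebp* was above 0, up to r = 0.478 with *Tmem97* and 0.428 with *Acat2*. The median r was 0.268 over the 55 pairs of sterol arm genes and 0.429 over the 36 pairs of sensing genes. These points share their libraries, depth and scaling, so the values are a description.

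Among neighbouring routes that are not members, the 13 genes of the isoprenoid branch, which lead to dolichol, ubiquinone and prenylated proteins, had 0 calls in control mice and a median log2 fold change of -0.04. Of all genes tested, 0.78% were called lower and 0.948% higher, so a count of 0 among so few genes says little. Of the 4 genes of acetyl-CoA supply, 1 was called, *Acly* (-0.49 ± 0.13, adjusted p = 0.0445), the enzyme that releases acetyl-CoA from citrate. Of the 16 fatty acid genes, 3 were called lower, *Fasn* (-0.69), the fatty acid synthase, and the desaturases *Scd2* (-0.92) and *Fads1* (-0.71), with adjusted p of 0.0372, 0.0107 and 0.0113 (edgeR). The median over the 16 was -0.47, beside -0.41 over the 30 members. At an unadjusted p under 0.05 (edgeR), 10 of the 16 were lower and 0 higher, against 8.86% of all genes lower. Of the 8 genes of sterol-regulated degradation and oxysterol sensing, 1 was called, *Ufd1*, which was higher (0.33 ± 0.09 SE, adjusted p = 0.0479). None of these 5 genes was called in knockout mice, where *Fads1* had a log2 fold change of -0.75 (adjusted p = 0.23, edgeR). With the immunoglobulin share as a covariate, none of the 5 was called in control mice, as 0 of all genes were.

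Some counts are uncertain because another gene overlaps the member and the strand setting of the counting was not given in the sources used here. *Fdft1* overlaps *Ctsb* by 774 bases on the other strand, and *Ctsb* had 584% of its count and a log2 fold change of 0.19 in control mice. *Cyp51* overlaps *Akap9* by 166 bases, with a change of -0.23 in *Akap9*. *Ggps1* overlaps *Arid4b* by 257 bases, *Rnf139* overlaps *Tatdn1*, and *Tm7sf2* lies on the same strand as *Vps51*. None of these 5 neighbours was called in control mice.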

How the data were processed

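Raw read counts per gene were deposited by the authors for 21 libraries (NEBNext Ultra, poly-A selected, paired-end, NovaSeq). The aligner, counter, strand setting and genome build were not given in the sources used here; gene coordinates equalled GENCODE M21 (GRCm38) for 97% of shared genes. Groups were taken from the sample titles, because the genotype entry of 8 knockout samples names the control genotype.

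Genes whose counts summed to 10 or more were tested with edgeR 4.0.16 (R 4.3.3; TMM, robust quasi-likelihood, 1 fit of 4 group means), with Benjamini-Hochberg adjustment over 20256 genes and a threshold of 0.05. DESeq2 1.42.0, other scalings, filters, covariates, blocks and left-out libraries were alternatives. Scripts were tested on simulated data. Levels between genes were CPM per kilobase of the gene length in the table. Depth was 14471018 to 22785835 counts. The p-values set a difference between groups against the spread between mice, estimated over all 4 groups. Intervals are 95%.

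The 30 genes, the gene lists and the motifs were chosen with earlier results of these data known. All 30 genes were named; values per mouse were given for those called in control mice, the 2 with the smallest p for the genotype difference, both Insig genes and Srebf2. Genes outside the 30 were named where called, and the overlapping genes and the correlated pairs were chosen after their values were seen.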

Additional observations from a re-analysis of the deposited data

Results flagged for a closer look

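In 8 of 120 combinations of a gene and a group (6.67%), 1 mouse stood apart from the others by Dixon's test; chance flags about 1 in 20. In knockout mice at ZT0, replicate 2 was highest for Hmgcs1 (170 CPM, next 101) and for Idi1 (33.8 CPM, next 23.2). In knockout mice at ZT12, replicate 2 was highest for Mvd (17.9 CPM, next 14.5) and Sqle (63.4 CPM, next 47.1) and lowest for Insig2 (12.6 CPM, next 15.3). In the same group replicate 5 was highest for Acat2 (7.91 CPM, next 4.57), and replicate 4 was lowest for Ebp (25.7 CPM, next 29.5). In control mice at ZT12, replicate 2 was highest for Ebp (49.3 CPM, next 35.2).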

How the results depend on the processing

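The number of the 30 genes called lower at ZT12 in control mice, 11 with all libraries, was the least stable result. It was 4 at a threshold of 0.01, 5 with the control groups fitted alone, 7 with the replicate block, 6 with the epithelial markers as a covariate, 0 with the immunoglobulin share as a covariate, 7 without the 3 libraries with a length slope under -0.1 (steep libraries), 3 without the 4 libraries with an immunoglobulin share over 58%, and 0 within the libraries over and 0 within those under 50 CPM of Xist; leaving out each library in turn gave 5 to 13. Calls over all genes also moved, from 350 with all libraries. They were 14 at a threshold of 0.01, 38 with the control groups alone, 183 with the replicate block and 93 with the epithelial covariate. Without the 3 steep libraries they were 57 and without the 4 of high share 12. They were 0 with the immunoglobulin share as a covariate and within each Xist class. Leaving out each library gave 31 to 944. The knockout count of 0 was 2 with DESeq2, among 47 of all genes, and 1 without the 4 libraries of high share, among 3. The count of 13 for both genotypes together was 5 at 0.01, 7 with the epithelial covariate, 2 over and 3 under 50 CPM of Xist. The matching counts over all genes were 22, 72, 21 and 6, against 163 with all libraries. The replicate block left 10 for both genotypes together, beside 119 of all genes. The groups fitted alone give no value for the mean or the difference of genotypes. The other counts at an adjusted p under 0.05 stayed within 1.5 times the value given, or at 0. Counts at an unadjusted p under 0.05 also moved. The knockout count of 12 lower genes was 6 within the libraries over 50 CPM of Xist and 7 without knockout ZT0 replicate 2. Over all genes, in either direction, 1702 and 1806 passed in these fits. The genotype difference count of 4 was 0 with the immunoglobulin share as a covariate and under 50 CPM of Xist, 1 without the 3 steep libraries, without the 4 of high share or without knockout ZT0 replicate 3, 2 without control ZT12 replicate 2, 7 with the column run as a block and 8 with library size only. In the same order, 696, 382, 738, 673, 1055, 1684, 1834 and 1954 of all genes passed. The count of 2 between genotypes at ZT12 ranged from 0 to 4. The cause was not tested. The settings by length slope, by immunoglobulin share over 58%, by Xist class and by the runs of columns in the table were chosen after seeing the data. Replicate numbers do not mark shared animals: same-numbered libraries correlated from -0.261 to 0.408 after removal of group means.

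In 211 values of single genes under an alternative, the sign changed; in none of the 211 was the gene called in either fit. The values, as log2 changes, follow.

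Within the libraries over 50 CPM of Xist, the control change was 0.11 for Acat2, 0.20 for Mvd and 0.030 for Insig2. With DESeq2, the control change was 0.022 for Mvd. With the size factors of DESeq2 in edgeR, the control change was 0.022 for Mvd. Without immunoglobulin genes, the control change was 7e-04 for Mvd. With filterByExpr, the control change was 0.012 for Mvd. With the replicate block, the control change was 0.0050 for Mvd. With Xist as a covariate, the control change was 0.0072 for Mvd. With the column run as a block, the control change was 0.0099 for Mvd. With immunoglobulin share as a covariate, the control change was 0.11 for Fdps, 0.10 for Scap, 0.050 for Insig2, 0.025 for Mbtps1, 0.0078 for Erlin1 and 0.15 for Rnf139. With library size only, the control change was -0.050 for Ggps1. Without the 4 libraries of high immunoglobulin share, the control change was 0.012 for Scap and 0.057 for Rnf139. With the length trend removed, the control change was 0.025 for Mbtps1. Without the 3 steep libraries, the control change was 0.025 for Rnf139. Leaving out each library in turn, the control change ranged from -0.074 to 0.12 for Mvd.

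Within the libraries over 50 CPM of Xist, the knockout change was 0.30 for Acat2, -0.055 for Ggps1 and 0.081 for Stard4. With the column run as a block, the knockout change was 0.036 for Mvd, -0.021 for Insig2 and -0.090 for Mbtps2. Without the 3 steep libraries, the knockout change was 0.064 for Ebp, -0.11 for Insig2, -0.13 for Mbtps2 and -0.0063 for Erlin2. Without the 4 libraries of high immunoglobulin share, the knockout change was 0.062 for Ebp, -0.11 for Insig2, -0.13 for Mbtps2 and -0.0084 for Erlin2. Within those under 50 CPM of Xist, the knockout change was -0.035 for Scap, -0.25 for Insig2 and -0.26 for Mbtps2. With library size only, the knockout change was -0.027 for Insig2 and -0.024 for Mbtps2. With the replicate block, the knockout change was -0.0035 for Insig2. With the length trend removed, the knockout change was -0.035 for Mbtps2. Leaving out each library in turn, the knockout change ranged from -0.44 to 0.075 for Acat2, -0.18 to 0.081 for Mvd, -0.13 to 0.066 for Ebp, -0.11 to 0.10 for Insig2, -0.12 to 0.19 for Mbtps2 and -0.0047 to 0.18 for Erlin2.

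Within the libraries over 50 CPM of Xist, the mean change of both genotypes was 0.20 for Acat2, 0.087 for Mvd, 0.18 for Insig2, -0.051 for Mbtps1 and 0.10 for Erlin1. With the column run as a block, the mean change of both genotypes was 0.023 for Mvd, -0.0031 for Mbtps1 and -0.033 for Rnf139. With immunoglobulin share as a covariate, the mean change of both genotypes was 0.17 for Fdps, 0.028 for Insig2 and 0.11 for Erlin1. With library size only, the mean change of both genotypes was -0.055 for Scap, -0.11 for Mbtps1 and -0.11 for Rnf139. Within those under 50 CPM of Xist, the mean change of both genotypes was -0.070 for Scap and -0.065 for Rnf139. With no count filter, the mean change of both genotypes was -8e-04 for Mbtps1 and -0.0028 for Rnf139. With Xist as a covariate, the mean change of both genotypes was -0.0038 for Mbtps1 and -0.0057 for Rnf139. Without the 3 steep libraries, the mean change of both genotypes was -0.0015 for Mbtps1. With the epithelial markers as a covariate, the mean change of both genotypes was -0.058 for Rnf139. Leaving out each library in turn, the mean change of both genotypes ranged from -0.092 to 0.041 for Mvd, -0.17 to 0.055 for Fdps, -0.0092 to 0.11 for Scap, -0.082 to 0.022 for Insig2, -0.037 to 0.040 for Mbtps1, -0.12 to 0.036 for Erlin1 and -0.059 to 0.040 for Rnf139.

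With library size only, the genotype difference was 0.15 for Acat2, 0.035 for Pmvk, 0.10 for Mvd, 0.16 for Tm7sf2, 0.013 for Sc5d and 0.058 for Tmem97. With the epithelial markers as a covariate, the genotype difference was 0.0034 for Acat2. With the length trend removed, the genotype difference was 0.030 for Acat2, 0.027 for Pmvk, 0.073 for Mvd, -0.049 for Ggps1, -0.092 for Lss, -0.022 for Msmo1 and 0.10 for Tmem97. Without the 4 libraries of high immunoglobulin share, the genotype difference was 0.069 for Acat2, 0.054 for Pmvk, -0.26 for Idi1, -0.020 for Ggps1, -0.091 for Lss, -0.024 for Cyp51, 0.080 for Tm7sf2, -0.021 for Msmo1, -0.023 for Nsdhl, -0.10 for Insig2, -0.013 for Rnf139 and 0.0051 for Tmem97. Within the libraries over 50 CPM of Xist, the genotype difference was 0.19 for Acat2, -0.16 for Ggps1 and 0.28 for Tm7sf2. With the column run as a block, the genotype difference was 0.027 for Mvd. Within those under 50 CPM of Xist, the genotype difference was 0.014 for Mvd, -0.052 for Idi1, -0.081 for Hsd17b7, -0.10 for Insig2 and -0.077 for Mbtps2. With immunoglobulin share as a covariate, the genotype difference was -0.29 for Idi1, -0.074 for Lss, -0.019 for Cyp51, 0.13 for Tm7sf2, -0.084 for Msmo1, -0.081 for Hsd17b7, -0.045 for Insig2 and -0.12 for Stard4. Without the 3 steep libraries, the genotype difference was -0.22 for Idi1, -0.082 for Hsd17b7, -0.10 for Insig2, -0.045 for Stard4 and 0.082 for Tmem97. With DESeq2, the genotype difference was -0.0093 for Ggps1. With the size factors of DESeq2 in edgeR, the genotype difference was -0.010 for Ggps1. With filterByExpr, the genotype difference was -0.0037 for Ggps1. With Xist as a covariate, the genotype difference was -0.011 for Ggps1. Leaving out each library in turn, the genotype difference ranged from -0.32 to 0.20 for Acat2, -0.22 to 0.080 for Mvd, -0.087 to 0.21 for Idi1, -0.11 to 0.073 for Ggps1, -5e-04 to 0.22 for Lss, -0.0055 to 0.20 for Cyp51, -0.18 to 0.20 for Tm7sf2, -0.059 to 0.28 for Msmo1, -0.049 to 0.16 for Insig2 and -0.28 to 0.035 for Tmem97.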
